A study of Rattus norvegicus with 2 samples.

Results

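The cytochrome P450 genes were followed in the liver of diabetic rats given γ-conglutin or vehicle. They were every library spot whose gene symbol begins with Cyp and a number. That rule took 66 spots of 61 gene symbols, out of 21766 library spots and 17203 distinct symbols on the array. Grouped by the family number in the symbol, 38 spots were in families 1 to 3, which handle drugs, toxins and other foreign compounds, and 12 in family 4, which acts on fatty acids. A further 8 were in the sterol and bile acid families 7, 8, 27, 39, 46 and 51, 5 in the steroid families 11, 17, 19 and 21, and 3 in families 20, 24 and 26.

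Both groups were adult male Wistar rats. Streptozotocin, a toxin of pancreatic beta cells, had been injected once at 65 mg/kg after a 12 h fast. Both groups were thus diabetic (glycaemia above 200 mg/dl at 72 h). Any fast before the liver was taken is not stated in the labels. The γ-conglutin group then received this lupin seed protein at 120 mg/kg for 7 days, dissolved in 0.9% NaCl. The vehicle group received the 0.9% NaCl alone for the same time. Liver RNA of 5 rats was pooled within each group, and the same 2 pools were hybridised on 2 arrays with the dyes exchanged: γ-conglutin in Alexa647 and vehicle in Alexa555 on array 1, and γ-conglutin in Alexa555 and vehicle in Alexa647 on array 2. There was no non-diabetic group in these samples. Each treatment was therefore 1 sample with 2 technical repeats, no p-value could be given, and every SD below is over the 2 arrays and not over rats. In pooled liver, fewer cells of a type and less RNA per cell cannot be told apart.

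Cytochrome P450 enzymes carry a haem group and insert an oxygen atom into their substrates, taking electrons from P450 reductase in the endoplasmic reticulum or from ferredoxin in mitochondria. The liver is their main site, where families 1 to 3 clear foreign compounds under receptors such as the aryl hydrocarbon receptor and the xenobiotic receptors, family 4 hydroxylates fatty acids under the fatty acid receptor PPARα, and sterol families turn cholesterol into bile acids. The steroid families act mainly in adrenal, gonad and placenta. The array gives mouse gene names: 27 of the 61 symbols were current rat symbols in the RefSeq gene table of assembly GRCr8, 13 were listed there as older names, and 21 were in neither list. P450 paralogs are close in sequence and probe sequences were not used here, so rat transcripts of related genes may share a spot.

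All 66 P450 spots were above background in all 4 channels, as were 21258 of the 21707 library spots that passed the filter. Of the P450 spots, 65, all but Cyp2a5, were also brighter than the 95th percentile of empty spots, as were 20605 of those library spots. The raw intensity of the P450 spots ranged between 62.5 and 64114 units on array 1 and between 80.7 and 38172 on array 2 in the γ-conglutin pool. In the vehicle pool the range was 56.6 to 37518 on array 1 and 67.5 to 43347 on array 2. None reached 65000 units, the mark taken for saturation, but Cyp17a1 in the γ-conglutin pool on array 1, at 64114, lay close under it.

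No P450 spot differed between the pools by 1.5-fold, or by 0.32 on the log2 scale, in the same direction on both arrays. Each value is a log2 ratio, γ-conglutin over vehicle, after background correction and loess normalization within each array. None of the 66 spots was higher by 1.5-fold on both arrays (0% of all 21707 library spots tested) and none was lower by 1.5-fold on both (0% of all). At a smaller size of 0.32 on the log2 scale, none was higher on both arrays (0.00461% of all library spots) and none was lower (0.304%). The means of both arrays ran between -0.30 and 0.24, so that none lay beyond 0.32, within which 97.6% of all library spots also fell. At a mark of 0.2 on the mean, chosen after the values were seen, 2 spots were higher, Cyp2g1 and Cyp17a1 (1.91% of all library spots), and 5 were lower, Cyp2e1, Cyp3a44, Cyp27b1, Cyp2c68 and the brighter of the probes of Cyp2b13 (8.13%).

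By sign alone, 14 of the 66 P450 spots were higher in the γ-conglutin pool on both arrays (16.6% of all library spots), 10 were lower on both (16.1%), and 42 had opposed signs (67.3%). As shares of the P450 spots these were 21.2%, 15.2% and 63.6%, which lay near the shares over the library. Print-tip loess, which normalizes each printed block by itself, gave 10 higher and 13 lower, median centring of each array 15 and 7, and the authors' net intensities 14 and 13. The median log2 ratio of the P450 spots was 0.01 ± 0.03 (SD over 2 arrays), against 0.01 over all library spots. The spread of the mean ratios was also the same, with an SD across spots of 0.12 for P450 genes and 0.12 for the library.

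**Figure D1:**
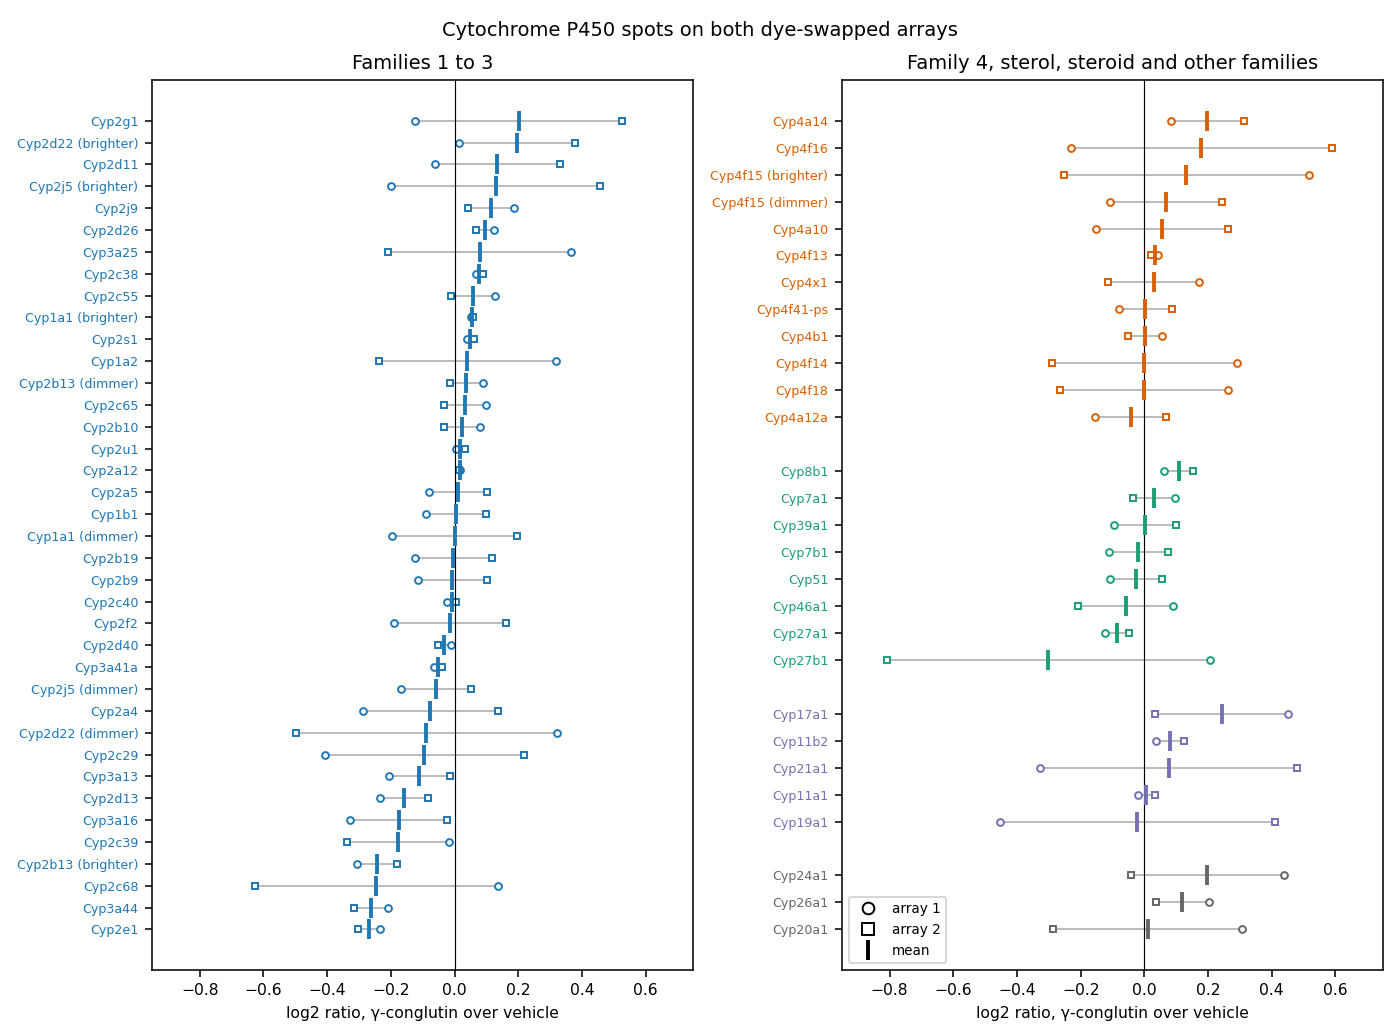
Log2 ratio (γ-conglutin over vehicle) for each of the 66 P450 spots, with families 1 to 3 at the left and family 4, the sterol and bile acid, the steroid and the other families down the right. Circles are array 1, squares array 2 and the bar their mean. The means stay between -0.30 and 0.24, and in 42 spots the circle and the square lie on opposite sides of 0.

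Cyp2e1, which oxidises ethanol, acetone and other small molecules and is known to be raised in the liver of diabetic rats, was the lowest P450 gene whose arrays had the same sign. Its promoter is therefore shown, as the 250 bases before the start of rat Cyp2e1 in RefSeq (GRCr8, chr1:205269717-205269966, plus strand). The capitals mark AGGTCA, the hexamer that many nuclear receptors bind, and TATAAA, the TATA box letters. The same window of rat Cyp4a3 (chr5:134352237-134352486, minus strand) is given beside it, because the array's Cyp4a14, the family 4 spot with the highest mean, is listed as an older name of that gene. Both are written 5′ to 3′ in the direction of the gene.

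Cyp2e1: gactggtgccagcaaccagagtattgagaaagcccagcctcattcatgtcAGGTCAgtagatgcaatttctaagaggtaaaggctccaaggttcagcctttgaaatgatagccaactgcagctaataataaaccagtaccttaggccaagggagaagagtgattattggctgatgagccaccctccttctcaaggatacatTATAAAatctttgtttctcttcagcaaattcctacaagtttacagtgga
Cyp4a3: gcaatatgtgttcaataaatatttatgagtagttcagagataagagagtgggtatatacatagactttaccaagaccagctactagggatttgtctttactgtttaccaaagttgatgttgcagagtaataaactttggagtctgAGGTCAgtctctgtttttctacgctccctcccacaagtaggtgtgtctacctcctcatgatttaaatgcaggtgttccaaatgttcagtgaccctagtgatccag

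The Cyp2e1 window held AGGTCA beginning 200 bases and TATAAA beginning 49 bases before the start, and the Cyp4a3 window held AGGTCA 105 bases before it. Both motifs were searched on both strands, and they do not overlap. AGGTCA was present in 14.1% of the 33469 rat windows of this length and in 25 of the 78 rat P450 windows (32.1%). TATAAA was present in 12.9% of all windows and in 19 of the 78 P450 windows (24.4%). A match is a string of letters in the window and not a measured site.

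On the normalized log2 scale, Cyp2e1 had 11.19 and 10.96 in the γ-conglutin pool on arrays 1 and 2, against 11.42 and 11.27 in the vehicle pool. Both γ-conglutin values lay below both vehicle values, as in 4 of the 66 P450 spots (5.84% of all library spots): Cyp2e1, Cyp3a44, Cyp3a16 and the brighter of the probes of Cyp2b13. Both lay above both vehicle values in 2 P450 spots, Cyp2j9 and Cyp11b2 (4.58% of all library spots). The arrays were not scaled to each other, so a comparison of values across arrays also carries their difference in brightness. The ratio within an array does not. The Cyp2e1 log2 ratio was -0.23 on array 1 and -0.30 on array 2, a mean of -0.27 ± 0.05, and it stayed between -0.29 and -0.26 under all 5 ways of making the ratio that were tried. Of all library spots, 4.39% had a lower mean. The 5 library spots around it on the glass averaged -0.06, with Cyp27b1, at a mean of -0.30, among them.

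Among the other spots of families 1 to 3, that named Cyp3a44, a symbol in neither rat list, was lower by about as much. It had 9.54 and 9.45 in the γ-conglutin pool, against 9.75 and 9.76 in the vehicle pool, a mean log2 ratio of -0.26 ± 0.07. Cyp3a enzymes clear a wide range of drugs and steroids. Cyp2e1 and Cyp3a44 were the 2 P450 spots lower by 0.2 on both arrays, a mark chosen after the values were seen as well (1.89% of all library spots), and none was higher by 0.2 on both (0.221%). As a share of the P450 spots, 2 of 66 is 3.03%.

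Of the 5 Cyp3a spots, 4 were lower in the γ-conglutin pool on both arrays (16.1% of all library spots), with a median log2 ratio of -0.11. Of the Cyp3a symbols, Cyp3a13 was listed as an older name of rat Cyp3a9, and Cyp3a16, Cyp3a25, Cyp3a41a and Cyp3a44 were in neither list. Related rat transcripts may share these spots, so they may not be separate readings. Median centring of each array in place of loess left 1 of the 5 lower on both. Cyp3a16 had 9.82 and 9.87 in the γ-conglutin pool, against 10.15 and 9.89 in the vehicle pool, a mean of -0.17 ± 0.22. Cyp3a13 had 8.23 and 8.18 in the γ-conglutin pool, against 8.43 and 8.20 in the vehicle pool, a mean of -0.11 ± 0.14. In both genes the array 2 values were nearly level, at log2 ratios of -0.02 and -0.01. Cyp3a41a averaged -0.05 ± 0.02, and Cyp3a25 had opposed ratios of 0.37 and -0.21. Cyp3a11, the main Cyp3a enzyme of mouse liver, is not among the array's symbols.

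**Figure D2:**
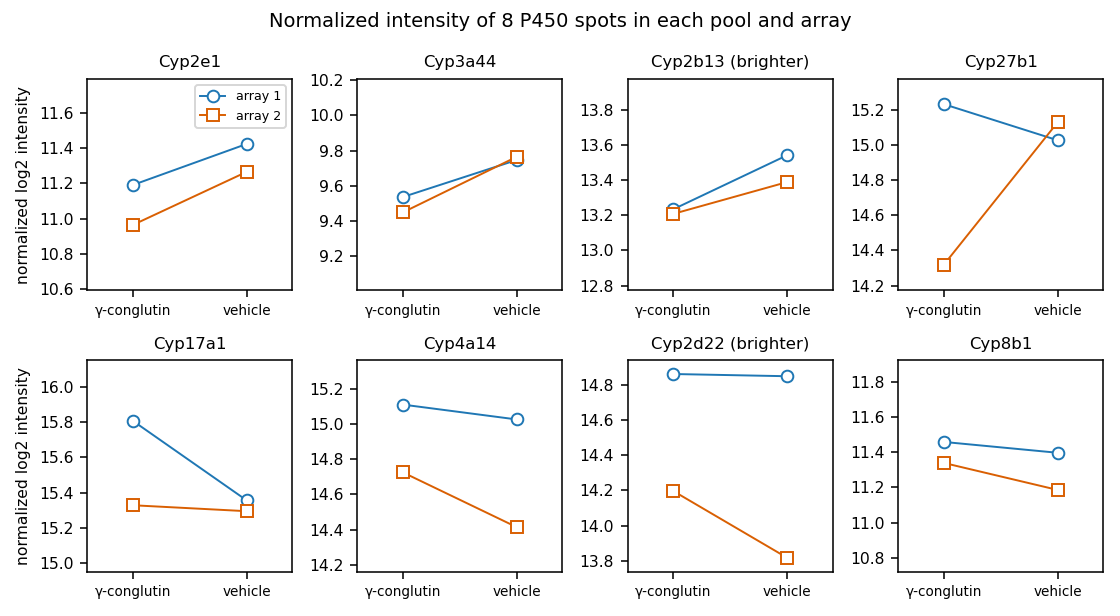
Normalized log2 intensity of 8 P450 spots, with the γ-conglutin pool left of the vehicle pool in each panel and a line joining the pools of 1 array. Each panel spans 1.2 log2 units. In Cyp2e1 and Cyp3a44 both γ-conglutin points lie below both vehicle points, while in Cyp27b1 the arrays run in opposite directions.

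The Cyp2b, Cyp2c and Cyp2d genes, large groups of drug-metabolizing enzymes, were spread around 0. The medians were -0.003 over 5 Cyp2b spots, -0.01 over 7 Cyp2c spots and 0.03 over 6 Cyp2d spots. The brighter of the 2 Cyp2b13 probes had 13.23 and 13.21 in the γ-conglutin pool, against 13.54 and 13.39 in the vehicle pool, a mean of -0.24 ± 0.09. The ratio was -0.12 when the authors' net intensities were used. Cyp2b13 was listed as an older name of rat Cyp2b21, and Cyp2b10 was in neither list. Cyp2b10, in mice a classic target of the receptor CAR, had 8.17 and 8.40 in the γ-conglutin pool, against 8.08 and 8.44 in the vehicle pool, a mean of 0.02 ± 0.08.

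Cyp2c39 had 9.59 and 8.89 in the γ-conglutin pool, against 9.61 and 9.23 in the vehicle pool, a mean of -0.18 ± 0.23 that came almost wholly from array 2. Cyp2d13 had 10.88 and 10.44 in the γ-conglutin pool, against 11.12 and 10.52 in the vehicle pool, a mean of -0.16 ± 0.11. Both were lower on both arrays. Their pools overlapped across the arrays, which were not scaled to each other. Cyp2c29 had 11.70 and 10.92 in the γ-conglutin pool, against 12.11 and 10.70 in the vehicle pool, a mean of -0.10 ± 0.44. Its log2 ratio was -0.41 on array 1 and 0.22 on array 2. Cyp2c68 showed the reverse order, with 0.14 on array 1 and -0.63 on array 2, a mean of -0.25 ± 0.54. Cyp2c39 and Cyp2d13 were listed as older names of rat Cyp2c7 and Cyp2d3, while Cyp2c29 and Cyp2c68 were in neither list.

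The Cyp1a genes, targets of the aryl hydrocarbon receptor, had means near 0, but in 2 of their 3 spots the arrays had opposed signs. Cyp1a2, which breaks down caffeine and aromatic amines, had 12.61 and 12.35 in the γ-conglutin pool, against 12.29 and 12.59 in the vehicle pool. Its log2 ratio was 0.32 on array 1 and -0.24 on array 2, a mean of 0.04 ± 0.39. The brighter Cyp1a1 probe had 10.65 and 10.14 in the γ-conglutin pool, against 10.60 and 10.08 in the vehicle pool, a mean of 0.06 ± 0.005. That mean was 0.02 with the authors' net intensities and 0.01 with print-tip loess, and the probe was higher on both arrays in 2 of the 5 ways of making the ratio. Cyp2g1, a P450 known from the olfactory lining, had the highest mean of families 1 to 3. It had 10.98 and 11.68 in the γ-conglutin pool, against 11.10 and 11.15 in the vehicle pool, a mean of 0.20 ± 0.46, with only array 2 higher. Over the 38 spots of families 1 to 3, 8 were higher on both arrays (16.6% of all library spots), 9 lower (16.1%) and 21 opposed (67.3%). Their median was 0.003.

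In family 4 no spot was lower on both arrays (16.1% of all library spots), 2 of 12 were higher (16.6%) and 10 were opposed (67.3%). The median log2 ratio was 0.03. Cyp4a14, a fatty acid hydroxylase and a well-known PPARα target, had 15.11 and 14.72 in the γ-conglutin pool, against 15.03 and 14.41 in the vehicle pool. Within each array the γ-conglutin value was the higher. The pools overlapped across the arrays, which were not scaled to each other. Its log2 ratio was 0.08 on array 1 and 0.31 on array 2, a mean of 0.20 ± 0.16, and it was higher on both arrays in 2 of the 5 ways of making the ratio. Cyp4a10, of the same subfamily, had 10.61 and 11.12 in the γ-conglutin pool, against 10.76 and 10.85 in the vehicle pool, a mean of 0.06 ± 0.29. Cyp4a12a had the lowest mean of the family, -0.04 ± 0.16, with 9.98 and 10.16 in the γ-conglutin pool, against 10.14 and 10.09 in the vehicle pool. The Cyp4a genes thus did not share a direction on both arrays. Cyp4f16 had the widest gap between arrays in the family, at log2 ratios of -0.23 and 0.59.

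The bile acid genes were nearly level between the pools. Cyp7a1, whose step sets the rate at which cholesterol becomes bile acid, had 9.98 and 9.41 in the γ-conglutin pool, against 9.89 and 9.45 in the vehicle pool, a mean log2 ratio of 0.03 ± 0.09. Cyp8b1, which directs synthesis to cholic acid, had 11.46 and 11.34 in the γ-conglutin pool, against 11.40 and 11.18 in the vehicle pool, a mean of 0.11 ± 0.06. Cyp27a1, which opens the alternative route of bile acid synthesis in mitochondria, had 12.82 and 12.65 in the γ-conglutin pool, against 12.94 and 12.70 in the vehicle pool, a mean of -0.09 ± 0.05. Cyp8b1 was thus higher and Cyp27a1 lower on both arrays. In each the pools overlapped across the arrays, which were not scaled to each other.

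Cyp7b1, an oxysterol hydroxylase of the same route, had 12.92 and 12.49 in the γ-conglutin pool, against 13.03 and 12.42 in the vehicle pool, a mean of -0.02 ± 0.13. Cyp39a1, another oxysterol hydroxylase, had 9.14 and 9.51 in the γ-conglutin pool, against 9.24 and 9.41 in the vehicle pool, a mean of 0.0009 ± 0.14. Cyp51, which removes a methyl group from lanosterol in cholesterol synthesis, had 9.39 and 9.75 in the γ-conglutin pool, against 9.50 and 9.70 in the vehicle pool, a mean of -0.03 ± 0.11. All 3 had opposed signs. Cyp46a1, the cholesterol hydroxylase of brain, had 8.25 and 8.20 in the γ-conglutin pool, against 8.15 and 8.41 in the vehicle pool, a mean of -0.06 ± 0.21.

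Cyp27b1, which makes active vitamin D in the kidney, had the lowest mean of all P450 spots, with the widest gap between arrays. It had 15.23 and 14.32 in the γ-conglutin pool, against 15.03 and 15.13 in the vehicle pool, so that its log2 ratio was 0.21 on array 1 and -0.81 on array 2. The mean was -0.30 ± 0.72, an SD larger than the mean. Its spot lay next to that of Cyp2e1, in columns 15 and 16 of row 1 of block 29. Over the 8 sterol and bile acid spots, 1 was higher on both arrays (16.6% of all library spots), 1 lower (16.1%) and 6 opposed (67.3%). Their median was -0.02.

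Of the 5 steroid genes, 2 were higher on both arrays (16.6% of all library spots) and 3 opposed (67.3%). Their median was 0.08, but it was -0.02 on array 1 alone and 0.13 on array 2 alone, and 0.04 without the dimmest 20% of spots. Cyp17a1, which makes androgen and glucocorticoid precursors, had the highest mean of all P450 spots. Its raw intensity was 64114 and 38172 in the γ-conglutin pool, against 37518 and 43347 in the vehicle pool. On the normalized log2 scale these became 15.81 and 15.33, against 15.36 and 15.29. Its log2 ratio was 0.45 on array 1 and 0.03 on array 2, a mean of 0.24 ± 0.30, so that the difference came almost wholly from array 1, where the γ-conglutin channel lay close to saturation. Its spot lay next to that of Cyp4a14, in columns 16 and 15 of row 1 of block 37.

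Cyp11a1, which starts steroid synthesis from cholesterol, had 11.31 and 11.11 in the γ-conglutin pool, against 11.33 and 11.08 in the vehicle pool, a mean of 0.01 ± 0.04. Cyp19a1, the aromatase that makes oestrogens, had 11.34 and 11.39 in the γ-conglutin pool, against 11.80 and 10.98 in the vehicle pool, a mean of -0.02 ± 0.61. Cyp21a1, an enzyme of adrenal steroid synthesis, had 11.03 and 10.98 in the γ-conglutin pool, against 11.35 and 10.50 in the vehicle pool, a mean of 0.08 ± 0.57. In both the γ-conglutin pool was the lower on array 1 and the higher on array 2. Cyp11b2, aldosterone synthase, had 8.45 and 8.48 in the γ-conglutin pool, against 8.41 and 8.35 in the vehicle pool, a mean of 0.08 ± 0.06, and Cyp11b1 is not among the array's symbols.

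The liver labels were set beside marker genes. Of 11 hepatocyte markers listed, 10 were on the array in 15 spots, all brighter than the 95th percentile of empty spots. Their summed raw intensity was 57101 and 65084 in the γ-conglutin pool, against 58038 and 65787 in the vehicle pool, and their median log2 ratio was -0.01. Of 5 markers of steroid-making tissue, 4 were on the array and all 4 were also brighter than that percentile, with none at 0, and 1 of them, Fdx1, is also on the electron transfer list below. Their summed raw intensity was 2111 and 2604 in the γ-conglutin pool, against 2534 and 1883 in the vehicle pool, with a median log2 ratio of 0.06. The part of these markers in the steroid P450 values was not tested. Raw sums also carry the brightness of the dye. The median raw intensity of library spots in Alexa647 and Alexa555 was 1287 and 1683 on array 1, and 1179 and 1641 on array 2. The median log2 ratio was 0.07 over 5 macrophage spots, -0.10 over 4 endothelial spots, 0.001 over 4 erythroid spots and -0.10 over 3 pancreas spots. The endothelial spots ran from -0.47 (Oit3) to 0.23 (Kdr). The mark of empty spots does not tell tissues apart: 20605 of 21707 library spots passed it, as did all 5 macrophage and all 3 pancreas spots. Median intensity percentiles among library spots were 62.1 for hepatocyte and 66.5 for pancreas spots. They were 45.4 for macrophage, 47.8 for endothelial, 27.9 for steroid-making tissue and 18.6 for erythroid spots. Of single spots, Ins1, a pancreas marker, lay at 96.0 and Alb, a hepatocyte marker, at 93.5. Among P450 spots Cyp17a1 lay at 99.2, Cyp27b1 at 96.3 and Cyp2e1 at 60.6. Whether each spot reports the transcript it is named for was not tested.

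The remaining families held Cyp24a1, Cyp26a1 and Cyp20a1. Cyp26a1, which breaks down retinoic acid, had 11.50 and 11.10 in the γ-conglutin pool, against 11.30 and 11.06 in the vehicle pool, a mean of 0.12 ± 0.12, and was the member of these families higher on both arrays. Cyp24a1, which breaks down vitamin D, had 9.04 and 8.43 in the γ-conglutin pool, against 8.60 and 8.48 in the vehicle pool, a mean of 0.20 ± 0.34. Cyp20a1, whose substrate is not known, had 9.28 and 8.72 in the γ-conglutin pool, against 8.98 and 9.00 in the vehicle pool, a mean of 0.01 ± 0.42.

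Of the 61 symbols, 5 had 2 probes each, and in 3 of the 5 the probes had means of opposite sign. The brighter Cyp2d22 probe had 14.86 and 14.20 in the γ-conglutin pool, against 14.85 and 13.82 in the vehicle pool, a mean of 0.20 ± 0.26. The dimmer Cyp2d22 probe had 11.55 and 11.24 in the γ-conglutin pool, against 11.23 and 11.73 in the vehicle pool, a mean of -0.09 ± 0.58. The difference between them, brighter minus dimmer, was 0.29. For Cyp2b13 it was -0.28, with -0.24 in the brighter probe and 0.04 ± 0.07 in the dimmer one, which had 9.26 and 9.54 in the γ-conglutin pool, against 9.17 and 9.56 in the vehicle pool.

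For Cyp2j5, in mice an enzyme that oxidises arachidonic acid, the brighter probe averaged 0.13 ± 0.47 and the dimmer -0.06 ± 0.16. The brighter one had 14.58 and 14.73 in the γ-conglutin pool, against 14.78 and 14.27 in the vehicle pool, and the dimmer 10.55 and 9.52, against 10.72 and 9.47. The Cyp4f15 probes were closer, at 0.13 ± 0.55 and 0.07 ± 0.25. The brighter Cyp4f15 probe had 11.65 and 11.21 in the γ-conglutin pool, against 11.13 and 11.46 in the vehicle pool, and the dimmer 8.56 and 8.70, against 8.67 and 8.45. The dimmer Cyp1a1 probe averaged 0.0009 ± 0.28, with 6.41 and 6.99 in the γ-conglutin pool, against 6.61 and 6.80 in the vehicle pool.

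In most P450 spots (63.6%), as in most library spots (67.3%), the sign of the ratio stayed with the dye and not the pool. With 1 exchange of dyes, a dye effect and other differences between the 2 arrays cannot be told apart. Across the 66 spots the log2 ratios of the 2 arrays, both turned to γ-conglutin over vehicle, had a Pearson r of -0.49 and a Spearman rho of -0.49, against -0.44 and -0.45 over all library spots. The points share 1 pair of pools and 1 pair of arrays, so these are descriptions. The part of the ratio that stays with the dye (Alexa647 over Alexa555, averaged over the arrays) had an SD across P450 spots of 0.20, against 0.12 for the part that stays with the pool. In all, 3 P450 spots had the same dye brighter by 0.32 on both arrays, which is 4.55% of them and 3.42% of all library spots: Cyp19a1 and Cyp21a1 were brighter in Alexa555, and the dimmer Cyp2d22 probe in Alexa647.

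**Figure D3:**
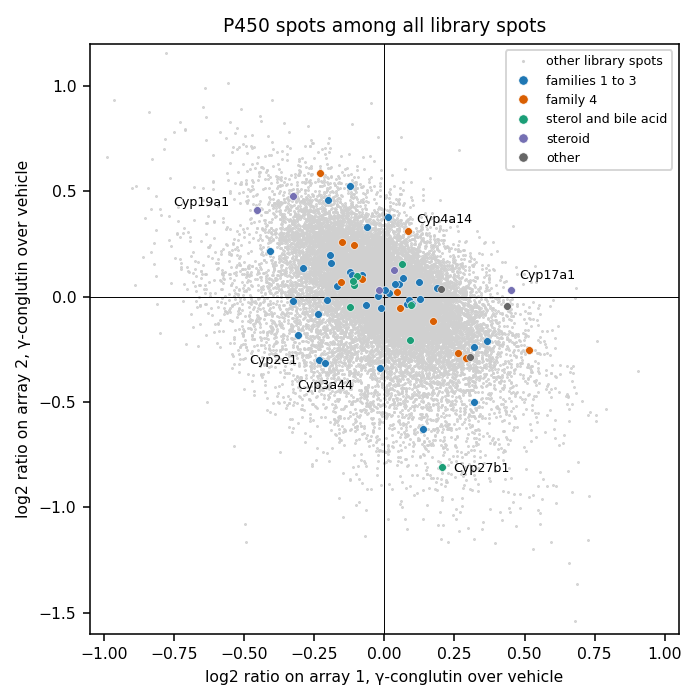
Log2 ratio of γ-conglutin over vehicle on array 1 (horizontal) and array 2 (vertical), for the P450 spots over all library spots. A ratio that follows the pool lies near the rising diagonal and one that follows the dye near the falling diagonal. Cyp19a1 and Cyp21a1 lie at the upper left, Cyp27b1 at the lower right, and Cyp2e1 and Cyp3a44 at the lower left.

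The dye part also went with the place on the slide. In blocks 1 to 24, 4 of 35 P450 spots were brighter in Alexa647 (11.4%), against 27.8% of library spots there. In blocks 25 to 48 it was 24 of 31 (77.4%), against 70.6%. Print-tip loess brought the SD of the dye part across P450 spots to 0.14 and left that of the pool part at 0.12. Many P450 spots were printed side by side: of 13 adjacent pairs, 10 had the same sign of the dye part (76.9%, against 65.4% of adjacent library pairs) and 8 the same sign of the pool part (61.5%, against 56.6%).

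**Figure D4:**
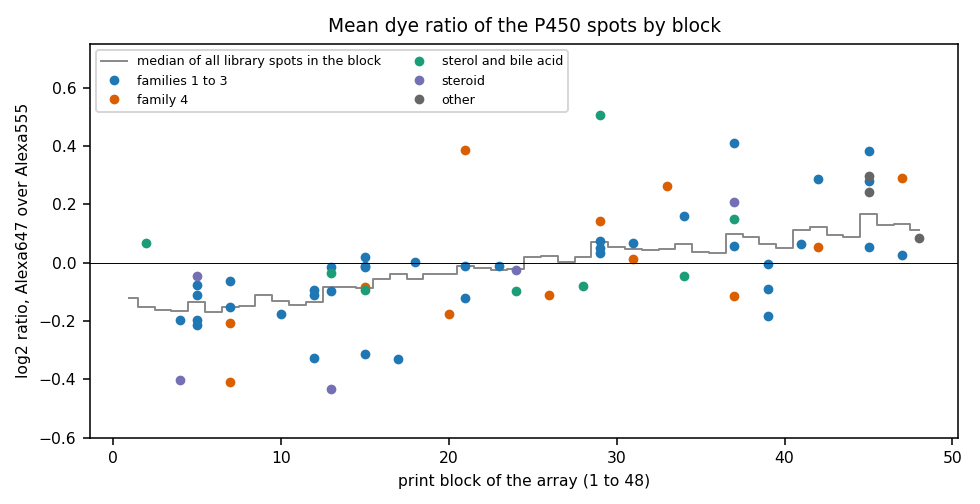
Dye part of the log2 ratio (Alexa647 over Alexa555, mean of both arrays) of each P450 spot by the printed block it lies in, with the median of all library spots of each block as a step line. Most P450 spots of blocks 1 to 24 lie below 0 and most of blocks 25 to 48 above it.

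The direction of some members, as of some library spots in general, held however the ratio was made. All ways of making it reuse the same 2 hybridisations, so they are not separate measurements. With 5 ways of making it (loess, plain background subtraction, the authors' net intensities, median centring and print-tip loess), 6 of the 66 P450 spots were lower in the γ-conglutin pool on both arrays in all 5 (6.34% of all library spots). They were Cyp2e1, Cyp3a44, the brighter Cyp2b13 probe, Cyp2c39, Cyp2d13 and Cyp27a1. Likewise 2 spots, Cyp2c38 and Cyp2j9, were higher on both arrays in all 5 (4.53% of all library spots), with means of 0.08 ± 0.01 and 0.11 ± 0.10. Cyp2j9 had 12.30 and 12.16 in the γ-conglutin pool, against 12.11 and 12.12 in the vehicle pool.

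Genes that P450 enzymes depend on also showed no difference of 0.32 on the log2 scale in the same direction on both arrays. Of 29 listed, 27 were on the array in 28 spots. Of these spots, 4 were higher on both arrays (16.6% of all library spots), 1 lower (16.1%) and 23 opposed (67.3%). Their median log2 ratio was 0.02, and none passed 0.32 on both. All 8 electron transfer genes had opposed signs (67.3% of all library spots). Por, the reductase that feeds the microsomal P450s, had 10.40 and 10.08 in the γ-conglutin pool, against 10.21 and 10.14 in the vehicle pool, a mean of 0.07 ± 0.17. The highest of these was cytochrome b5 (Cyb5), at 0.18 ± 0.29, and the lowest Fdxr, which passes electrons to ferredoxin in mitochondria, at -0.10 ± 0.15.

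Of the 8 haem genes, Urod, an enzyme of haem synthesis, was highest at 0.10 ± 0.13. Alas1, the rate-limiting enzyme of haem synthesis in liver, had 14.61 and 15.07 in the γ-conglutin pool, against 14.86 and 14.69 in the vehicle pool, a mean of 0.07 ± 0.44 with opposed signs. Of the 12 receptor spots, Arnt, the partner of the aryl hydrocarbon receptor, was highest at 0.21 ± 0.18 and Nr1h4, the bile acid receptor FXR, lowest at -0.09 ± 0.15. Ahr, the aryl hydrocarbon receptor itself, averaged -0.08 ± 0.11 and was the spot of the whole list that was lower on both arrays.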

How the data were processed

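The raw and background intensities of each spot, 23232 per array, were deposited by the authors as mean pixel values in scanner units. The authors' net intensity in Alexa647 carries, beyond background subtraction, a factor that depends on intensity (method not given in the sources used here). Their deposited ratio is Alexa555 over Alexa647 of the net intensities, per the file headers, and the deposited value table equals its log2 (largest gap 4.44e-09, column medians -0.000837 and 0.0187 for arrays 1 and 2). Direction rests on the dyes in the labels.

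From the raw and background intensities, normexp (offset 50) and global loess, with control spots at weight 0, gave log2 ratios in limma 3.58.1 under R 4.3.3, turned to γ-conglutin over vehicle. Gapdh controls (231) and empty spots (1235) were left out. The filter asked of each array that 1 or both channels lie more than 2 SD over background, and it passed 21707 of 21766 library spots and all 66 P450 spots. Tables used Python 3.11.15 with pandas 2.3.3 and numpy 2.4.6, and figures matplotlib 3.10.9. The steps were tested on simulated data. The number of arrays limits the precision.

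The members and lists were chosen with earlier results of these data known. Genes named in full were a set panel, the highest and lowest of each family group, those past 0.32 on both arrays by pool or dye, symbols with over 1 probe, and up to 10 largest of equal sign. Other members are named beside a count of theirs. A gene that the rule takes is not reported here, while counts and medians include it. The planned median-pixel foreground was not run, since the columns give means. The 0.2 mark and the filter at the 95th percentile of empty spots were chosen after seeing the data.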

Additional observations from a re-analysis of the deposited data

How the results depend on the processing

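No paired analysis was possible because each treatment was 1 pool, and the ratio within an array is already the comparison of both pools. With either array alone, P450 spots higher by 1.5-fold numbered 0 to 1 and lower 0 to 2, and spots past 0.32 numbered 5 to 7 higher and 4 lower. The share over all library spots is not given for single arrays, so these counts do not set the P450 spots apart. The count of P450 spots with 1 dye brighter by 0.32 was 3 (3.42% of all library spots). It was 5 with plain background subtraction (5.14%) and 1 with the authors' deposited net intensities (2.7%). It was also 1 with the deposited value table (2.7%) and 1 with print-tip loess (1.61%). With median centring it was 4, and the library share was higher than under any of these settings. The library share thus changed with the setting too, so the change in count does not set the P450 spots apart. The family 4 median of 0.031 was 0.034 with plain subtraction, 0.0385 with net intensities and with the value table, 0.0259 with median centring, 0.0161 with print-tip loess, and 0.0452 to 0.049 on single arrays. The sterol and bile acid median of -0.0227 was -0.0468 with print-tip loess and ran from -0.0174 to 0.00883 on single arrays. On arrays 1 and 2 alone the median was -0.01 and 0.03 over all P450 spots, -0.04 and 0.02 over families 1 to 3, -0.02 and 0.13 over steroid spots, and 0.07 and -0.03 over the partner list. The cause was not tested. The filters on dim spots moved none of these counts by over 1.5 times. Of 338 values of the 38 named spots over settings with both arrays, 333 moved by less than 1 SD over arrays and 5 by more, all of the brighter Cyp1a1 and Cyp2b13 probes. Much of this count was fixed in advance. Settings that only filter spots leave the ratio of a kept spot unchanged, and the value table repeats the net intensities. The SD over arrays also holds the dye part of the ratio, so the count does not measure how stable the values are. With 2 arrays of 1 pool each, the spread between rats is not measured.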
